A study of Mus musculus with 4 samples.

Results

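The T cell receptor beta locus was described in thymic iNKT (invariant natural killer T) cells of the mouse, a T cell lineage that recognises lipids presented by CD1d. The members were the genes of the count table whose mouse symbol starts with Trbv, Trbd, Trbj or Trbc. This rule found 53 of 53715 genes, namely 35 V (variable), 2 D (diversity), 14 J (joining) and 2 C (constant) segments, and it used no measured value. Thymocytes of C57BL/6 mice aged 6 to 8 weeks were gated as live, CD1d tetramer positive and TCRβ positive. Their RNA was sequenced by Smart-seq2, which copies whole transcripts and keeps no strand information. There were 2 wild-type (WT) libraries and 2 libraries of genotype Mettl3fl/flCD4-cre, here called Mettl3 knockout, in which Cre driven by Cd4 deletes a floxed Mettl3, the gene of the enzyme that writes the m6A mark on RNA. The labels give no floxed allele or Cre for WT. Whether each library is a separate mouse, or a pool, is also not stated, so every p-value rests on a spread between libraries that may be technical.

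A β chain gene is assembled in thymocytes by V(D)J recombination, which joins a D to a J segment and then a V segment to that DJ unit, and the joined exon is spliced to a C gene. Trbd1 and the Trbj1 cluster lie before Trbc1, and Trbd2 and the Trbj2 cluster lie between Trbc1 and Trbc2. The β chain pairs with the α chain on the cell surface. In mouse iNKT cells the invariant α chain uses Trav11 and Traj18 and is known to pair mostly with β chains that use Trbv13-2 (Vβ8.2), its relatives Trbv13-1 (Vβ8.3) and Trbv13-3 (Vβ8.1), Trbv29 (Vβ7) or Trbv1 (Vβ2). Recombination of the β locus precedes the CD4+CD8+ thymocyte stage, from which Cre driven by Cd4 is active.

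The sequences of these 5 V segments are shown where the CDR3 loop of the receptor begins, because a read that crosses into this loop matches the genome only up to the join. They are the last 60 bases of each V exon, read 5′ to 3′ on the plus strand from GENCODE M21 transcripts of GRCm38, and the capitals mark the codon of the conserved cysteine that opens CDR3.
Trbv13-2: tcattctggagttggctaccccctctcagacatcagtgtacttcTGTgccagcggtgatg
Trbv13-1: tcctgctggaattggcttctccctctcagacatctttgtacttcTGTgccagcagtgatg
Trbv13-3: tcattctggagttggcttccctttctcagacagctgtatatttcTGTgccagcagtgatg
Trbv29: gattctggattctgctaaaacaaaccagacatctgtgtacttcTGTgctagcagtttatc
Trbv1: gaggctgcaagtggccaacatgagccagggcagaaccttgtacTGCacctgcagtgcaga
In the order shown they lie at chr6:41121773-41121832, chr6:41116409-41116468, chr6:41130526-41130585, chr6:41271822-41271881 and chr6:40891826-40891885. Trbv1 stands apart in sequence, with TGC as that codon and at most 53.3% identity to the exon of any other V segment not annotated as a pseudogene.

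The 3 Trbv13 exons are close relatives, which matters for assigning reads. Each is 294 bases long, and the capitals below mark the 49 positions at which the 3 genes are not all the same.
Trbv13-2: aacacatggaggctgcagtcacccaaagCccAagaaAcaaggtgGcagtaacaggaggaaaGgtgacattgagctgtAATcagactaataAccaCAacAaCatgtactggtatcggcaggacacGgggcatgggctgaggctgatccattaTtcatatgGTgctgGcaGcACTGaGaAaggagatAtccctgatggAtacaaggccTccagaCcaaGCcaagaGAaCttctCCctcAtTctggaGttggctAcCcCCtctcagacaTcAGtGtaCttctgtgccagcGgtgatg
Trbv13-1: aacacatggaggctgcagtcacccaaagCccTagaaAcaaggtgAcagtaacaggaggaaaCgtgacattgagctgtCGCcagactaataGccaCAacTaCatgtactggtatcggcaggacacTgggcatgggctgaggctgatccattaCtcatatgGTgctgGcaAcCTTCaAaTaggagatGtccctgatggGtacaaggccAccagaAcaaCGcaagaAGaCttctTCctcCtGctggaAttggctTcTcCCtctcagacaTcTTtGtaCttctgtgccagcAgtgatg
Trbv13-3: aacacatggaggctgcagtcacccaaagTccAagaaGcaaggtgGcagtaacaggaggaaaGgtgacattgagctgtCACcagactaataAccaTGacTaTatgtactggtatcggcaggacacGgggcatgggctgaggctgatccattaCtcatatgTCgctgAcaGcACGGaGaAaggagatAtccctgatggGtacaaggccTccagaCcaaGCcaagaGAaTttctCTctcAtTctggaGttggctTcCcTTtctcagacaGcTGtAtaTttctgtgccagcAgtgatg
In GRCm38 they lie on the plus strand at chr6:41121539-41121832, chr6:41116175-41116468 and chr6:41130292-41130585. Trbv13-2 was identical to Trbv13-3 over 91.8% of the exon and to Trbv13-1 over 88.8%. Despite this, just 1 of the 291 windows of 50 bases in Trbv13-2 also occurred in another segment, Trbv13-3. The constant genes were more alike in their coding sequence, with 99.7% of bases identical in the first exon and 95.6% over the coding sequence. Over the rest of the transcript the identity was 49.1%. Of the windows of 100 bases, 28.7% in Trbc1 and 30.9% in Trbc2 occurred in both, so how reads were divided between Trbc1 and Trbc2 is uncertain.

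The libraries held 24374587 to 28316016 counts over genes. Mettl3 itself was at 92.2 and 123.6 CPM (counts per 1000000 library counts after TMM scaling) in WT replicates 1 and 2 and at 78.1 and 91.4 CPM in Mettl3 knockout replicates 1 and 2, with an edgeR adjusted p of 0.357, so these counts do not settle the deletion. Of 7 iNKT cell markers, 0 rose and 2 fell by edgeR, Trac and Klrb1c. Klrb1c, the NK1.1 surface receptor gene of mature iNKT cells, had 491.5 and 561.9 CPM in WT replicates 1 and 2 and 199.1 and 192.9 CPM in the knockout (log2 fold change -1.43, edgeR adjusted p = 0.00253). Zbtb16, the gene of the lineage transcription factor, had 255.5 and 192.3 CPM in WT replicates 1 and 2 and 352.6 and 350.4 CPM in knockout replicates 1 and 2 (0.65, adjusted p = 0.0658 by edgeR). DESeq2 called Zbtb16 higher, as did edgeR with genes of at least 5 CPM in 2 libraries. Trav11 and its copy Trav11d held 11.9% and 10.8% of Trav counts in WT and 8.75% and 13.2% in the knockout, on 220 to 437 Trav counts per library. Traj18 held 5.43% and 4.73% of Traj counts in WT and 2.64% and 3.32% in the knockout.

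Members took 0.189% to 0.218% of all counts, and nearly all of these were on the constant genes, which held 95% to 96% of member counts in each library. The V segments together had 1297 and 751 counts in WT replicates 1 and 2 and 877 and 1113 in knockout replicates 1 and 2. The J segments had 1226, 1052, 1182 and 1286 counts in the same order, and the D segments 234, 154, 168 and 161. Per kilobase of exon, the summed V level was 4.52% and 2.74% of the summed C level in WT and 2.85% and 3.82% in the knockout. V segments were thus counted far more thinly than the constant genes, and the cause was not tested. J and D segments are too short for a level per length to be comparable, and counts or shares are given for them.

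**Figure D1:**
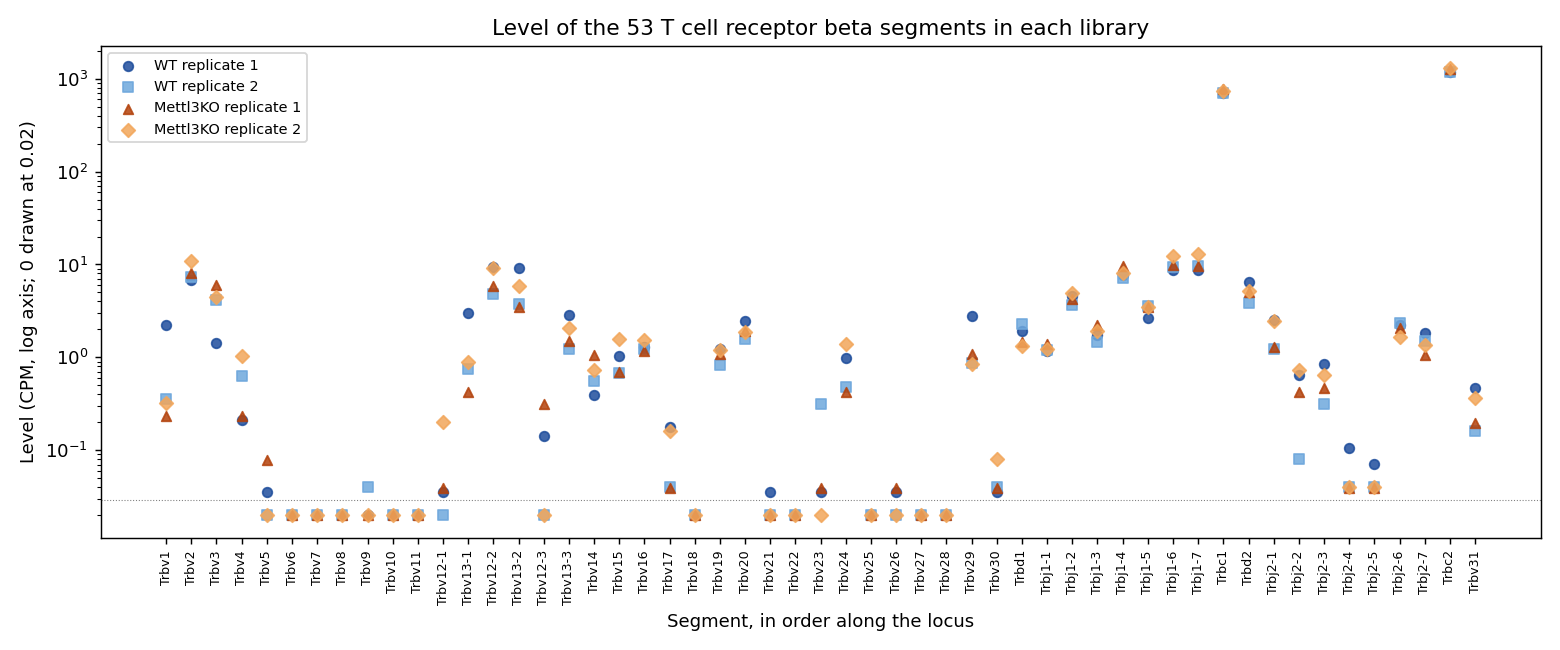
Level of each of the 53 segments in CPM on a log axis, in their order along the locus, with 1 point per library and values of 0 drawn at 0.02. The constant genes Trbc1 and Trbc2 lie between 696.4 and 1295 CPM while no V, D or J segment exceeds 12.8 CPM, and 10 V segments are at 0 in every library.

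No segment of the β locus differed between Mettl3 knockout and WT at an adjusted p under 0.05 (edgeR's quasi-likelihood test, adjusted by the Benjamini-Hochberg method over every tested gene). Of 30 segments with enough counts to be tested, 0 rose and 0 fell, where 2.59% of all 14185 tested genes were called. In bulk samples, fewer cells using a segment and less RNA per cell cannot be told apart. At an unadjusted p under 0.05 the count was also 0 of 30, where 20.2% of all tested genes passed. DESeq2 called 0 of the 32 segments to which it gave an adjusted p, where it called 1371 of 15035 genes. With limma voom 0 of 30 segments were called, against 269 of 14185 genes. The remaining 23 segments, 21 of them V, had too few counts. The lowest adjusted p was 0.377, for Trbc2. The fitted log2 fold change was above 0 for 19 segments and below 0 for 11, with a median of 0.13 against 0.02 for all tested genes. That median was -0.10 without knockout replicate 2 and -0.13 without WT replicate 2. It was 0.29 without WT replicate 1. In 13 of the 30 the libraries of the genotypes did not overlap, against 50.3% of all tested genes.

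**Figure D2:**
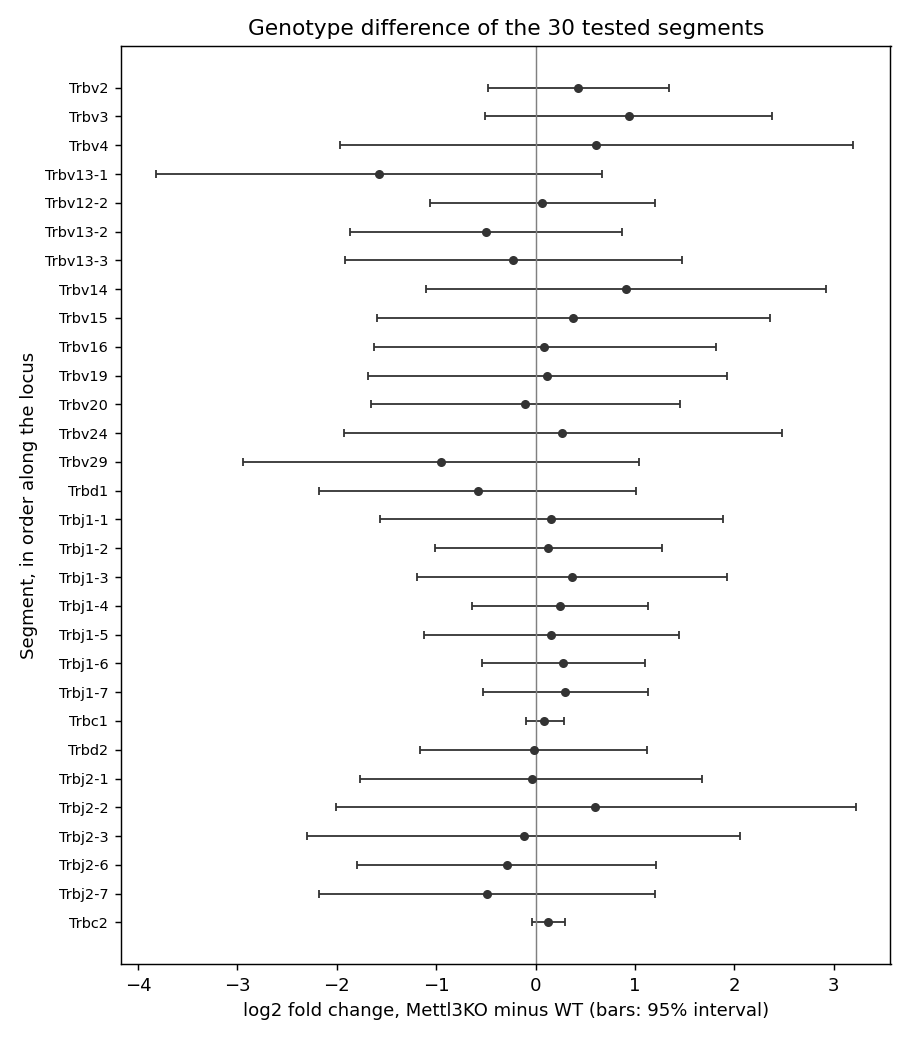
Fitted log2 fold change of Mettl3 knockout minus WT (points) with its 95% interval (bars) for the 30 tested segments, in their order along the locus. Every interval includes 0, and the narrowest are those of Trbc1 and Trbc2.

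The constant genes, which encode the membrane-anchored part of the β chain, gave the most precise values. Trbc1 (ENSMUSG00000076490.6, chr6:41538218-41539881) was at 707 and 696.4 CPM in WT replicates 1 and 2 and at 765.6 and 729.6 CPM in the knockout. Trbc2 (ENSMUSG00000076498.2, chr6:41546730-41548352) was at 1167 and 1181 CPM in WT libraries, against 1275 and 1295 CPM in the knockout. Both knockout libraries were above both WT libraries for each gene, but by small margins. The log2 fold change was 0.09 for Trbc1 (SE 0.08, 95% interval -0.10 to 0.29, edgeR adjusted p = 0.604). For Trbc2 it was 0.13 (SE 0.07, 95% interval -0.04 to 0.30, edgeR adjusted p = 0.377). The intervals therefore allow a rise of at most 0.30 and a fall of at most 0.10 on the log2 scale. Per kilobase, Trbc2 was 1.79 and 1.84 times as high as Trbc1 in WT and 1.80 and 1.92 times in the knockout. Trbc2 held 62.3% and 62.9% of Trbc counts in WT and 62.5% and 64.0% in the knockout. The genotype means of that share differed by 0.637 percentage points, with exact permutation p = 0.667 (two-sided, n = 2 per genotype). With 2 libraries per genotype this exact test cannot give a p below 0.333, here or for any share below.

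Among V segments, the 3 that the rule singles out took a minority of the counts. Trbv13-2 held 258 of 1297 Trbv counts in WT replicate 1, a share of 19.9% (95% Wilson interval 17.8% to 22.2%). Its share was 12.5% in WT replicate 2 (10.3% to 15.1%), 10.1% in knockout replicate 1 (8.32% to 12.3%) and 13.2% in knockout replicate 2 (11.3% to 15.3%). WT replicate 1 was the high library, and WT replicate 2 lay between the knockout libraries. Such intervals cover the counting error of reads only, not the spread between libraries. PCR copies of 1 molecule are counted as separate reads here, so the intervals can be too narrow even for counting error of molecules.

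Trbv29, another segment of the iNKT repertoire, held 6.01% of Trbv counts in WT replicate 1 (95% Wilson interval 4.84% to 7.44%), with 78 counts. The other libraries held 2.93%, 3.19% and 1.89%, in the order WT replicate 2 and knockout replicates 1 and 2, on 22, 28 and 21 counts. Trbv1 held 4.78% in WT replicate 1 (3.75% to 6.08%), on 62 counts. In the same order the other libraries held 1.20%, 0.684% and 0.719%, on 9, 6 and 8 counts. For both segments the interval of WT replicate 1 lay above those of the other 3 libraries.

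Together Trbv13-2, Trbv29 and Trbv1 held 30.7% and 16.6% of Trbv counts in WT replicates 1 and 2 and 14.0% and 15.8% in the knockout. The means were 23.7% ± 9.93 in WT and 14.9% ± 1.26 in the knockout (SD, n = 2), a difference of -8.75 percentage points (exact permutation p = 0.333, two-sided). This difference was smaller than the 14.0 points between the WT libraries. Without WT replicate 1 it was -1.73 points, and without WT replicate 2 it was -15.8. Singly, the difference was -4.53 points for Trbv13-2, -1.93 for Trbv29 and -2.29 for Trbv1, with exact permutation p of 0.667, 0.667 and 0.333 (two-sided, n = 2 per genotype, 3 segments compared). Without WT replicate 1 these were -0.839, -0.39 and -0.497 points. Adjusted over the 3 segments by the Benjamini-Hochberg method, each exact p was 0.667.

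The relatives Trbv13-1 and Trbv13-3 showed the same library pattern. Trbv13-1 had 85 counts in WT replicate 1 and 19 in WT replicate 2, and 11 and 22 in the knockout, or 3.02, 0.756, 0.427 and 0.883 CPM. Trbv13-3 had 81, 31, 39 and 52 counts, or 2.88, 1.23, 1.52 and 2.09 CPM. WT replicate 1 was again the highest library for each, and WT replicate 2 fell within the knockout range for Trbv13-1 and below it for Trbv13-3. With Trbv13-2, the family held 32.7% and 19.2% of Trbv counts in WT and 15.8% and 19.9% in the knockout.

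Fitted fold changes of these segments rest on WT replicate 1. The log2 fold change was -0.50 for Trbv13-2 (SE 0.58, edgeR adjusted p = 0.699), -0.95 for Trbv29 (SE 0.85, 0.595) and -1.58 for Trbv13-1 (SE 0.97, 0.418). Trbv13-3 had -0.23 (SE 0.72, edgeR adjusted p = 0.908). Without WT replicate 1 the values were 0.31, 0.13, -0.22 and 0.53, so the direction turned for Trbv13-2, Trbv29 and Trbv13-3. Trbv1 had too few counts for the test, at 2.21 and 0.358 CPM in WT libraries and 0.233 and 0.321 CPM in the knockout. With no filter on low counts its log2 fold change was -2.25 (edgeR adjusted p = 0.501).

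**Figure D3:**
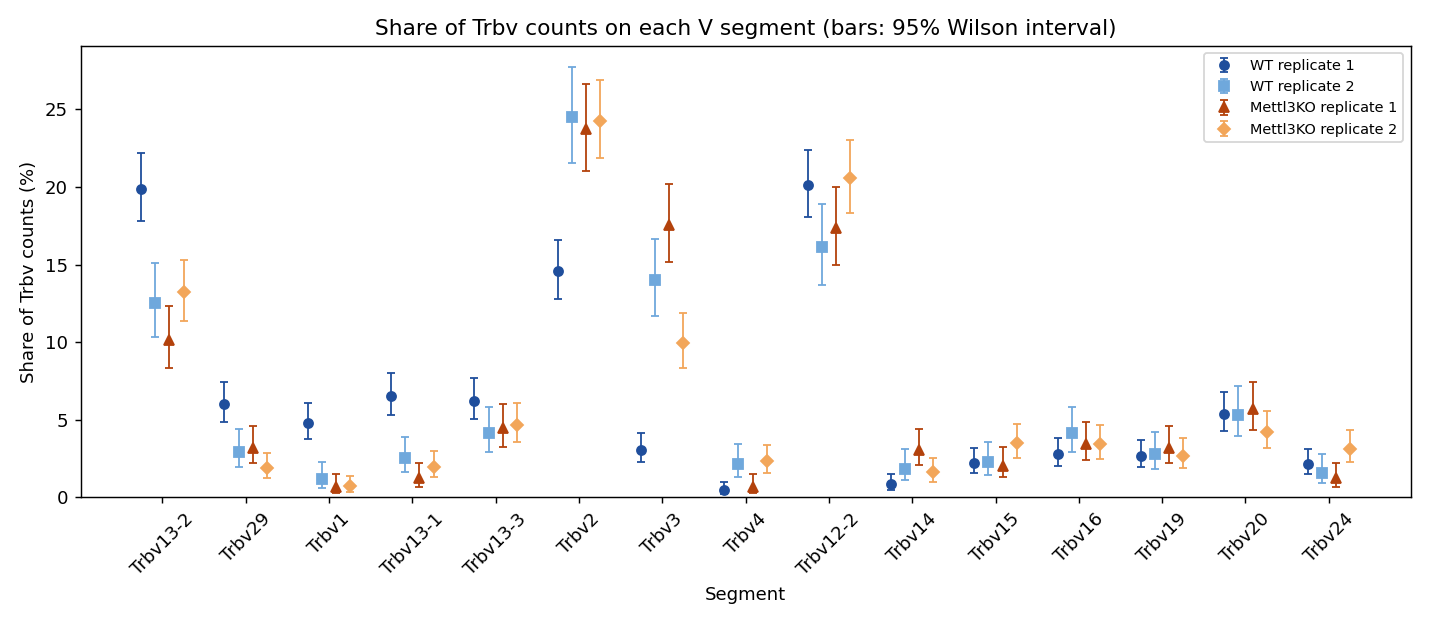
Share of Trbv counts (%) on 15 V segments (the iNKT repertoire and those with at least 2% in some library), with 1 point per library and bars for the 95% Wilson interval, the 5 segments of the iNKT repertoire first. WT replicate 1 is highest for all 5 and lowest for Trbv2, Trbv3, Trbv4, Trbv14 and Trbv16. The other 3 libraries lie close to each other for most segments.

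The 5 segments summed to 20.1 CPM in WT replicate 1 and 6.97 CPM in WT replicate 2, and to 6.72 and 10.03 CPM in knockout replicates 1 and 2. The other 30 V segments summed to 26.1 and 22.9 CPM in WT libraries and 27.4 and 34.6 CPM in the knockout. WT replicate 1 was thus 2.88 times as high as WT replicate 2 over the 5 segments and 1.14 times over the others. It was the highest library for 5 of the 5 and, of the 13 other V segments counted in every library, the highest for 5 and the lowest for 5. Beside this split, the 10 B cell markers summed to 232.7 and 220.2 CPM in WT replicates 1 and 2. The 11 markers of CD4+CD8+ thymocytes summed to 1839 and 1789 CPM. Tcf7 was the largest part of this thymocyte sum, at 1007 and 833.3 CPM. It was higher in WT replicate 1, as were Arpp21 and Cd1d1. All other markers of that list were lower in WT replicate 1, such as Cd8a (73.9 and 115 CPM) and Rag1 (49.2 and 59.9 CPM). The 9 markers of conventional single-positive T cells summed to 995.8 and 1068 CPM, and the 4 gamma-delta T cell markers in the table to 164.7 and 120.5 CPM. Pax5 and Foxp3, defining genes of B cells and regulatory T cells, were at 0 in every library.

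CD4+CD8+ thymocyte markers summed to 2431 and 2251 CPM in the knockout, with 0 of 11 past the test by edgeR (6 at an unadjusted p under 0.05, and 5 higher by DESeq2), and single-positive markers to 1806 and 1801 CPM, with 3 of 8 tested higher and 0 lower. B cell markers summed to 191.7 and 361 CPM (0 of 7 past the test by edgeR or DESeq2, 2 at an unadjusted p under 0.05 by edgeR). The 10 myeloid markers summed to 141.3 and 158.9 CPM in WT libraries and 456.2 and 500.1 CPM in the knockout. Of 8 tested by edgeR, 2 were higher, Lyz2 and Csf1r, and 1 was lower, Fcer1g. Lyz2 made up most of the knockout sum, at 29.6 and 47.5 CPM in WT libraries against 324.6 and 385.6 CPM in the knockout. Fcer1g was at 27.9 and 32.4 CPM in WT libraries against 8.67 and 9.75 CPM in the knockout. Of 7 gamma-delta T cell markers, the 4 in the table under the symbols used summed to 38.2 and 24.2 CPM in the knockout, with 0 of 3 tested higher and 1 lower. That one was Blk, a kinase gene, which made up most of the sum, at 148.2 and 98.9 CPM in WT replicates 1 and 2 against 17.2 and 11.8 CPM in the knockout. Trdc, the constant gene of the δ chain, went the other way, at 4.20 and 4.66 CPM against 12.5 and 9.55 CPM (log2 fold change 1.32, edgeR adjusted p = 0.138). The part of such cells in the V shares was not tested.

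Outside the iNKT repertoire, 3 segments held most of the remaining V counts. Trbv2 (Vβ4) had 189, 184, 208 and 270 counts in the order of the libraries above. Trbv3 (Vβ16) had 40, 105, 154 and 111 counts, and Trbv12-2 had 261, 121, 152 and 229. Together they held 37.8% and 54.6% of Trbv counts in WT and 58.6% and 54.8% in the knockout, more than Trbv13-2, Trbv29 and Trbv1 in each library. All 5 segments of the iNKT repertoire held 43.5% and 23.3% in WT and 19.7% and 22.5% in the knockout. Against these 5, the order was reversed in WT replicate 1. Trbv3 was lowest in WT replicate 1, at 1.42 CPM against 4.18 CPM in WT replicate 2 and 5.99 and 4.45 CPM in the knockout. Neither Trbv2 nor Trbv3 passed the test, with log2 fold changes of 0.43 (SE 0.39, edgeR adjusted p = 0.60) and 0.94 (SE 0.62, 0.455).

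Trbv12-2 is the V segment that lies just before Trbv13-2. Per kilobase of exon it stood at 24.1 and 12.5 CPM in WT libraries and 15.3 and 23.9 CPM in the knockout, and Trbv13-2 at 26.99 and 11.005 CPM in WT libraries and 10.2 and 17.3 CPM in the knockout. The ratio of Trbv12-2 to Trbv13-2 per kilobase was 0.893 and 1.14 in WT and 1.51 and 1.38 in the knockout. On this scale they and Trbv2, at 12 to 19.3 CPM per kilobase, were the highest V segments on average, and the order among the 3 changed with the library. The other segments with at least 2% of Trbv counts in some library were Trbv4, Trbv14, Trbv15, Trbv16, Trbv19, Trbv20 and Trbv24. Trbv20 was the highest of these, at 1.59 to 2.49 CPM and 4.22% to 5.70% of Trbv counts. Trbv4 lies inside the noncoding gene 5830405F06Rik on the same strand, so its 6, 16, 6 and 26 counts are uncertain beside the 5, 49, 17 and 23 of that gene.

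Of the 13 V segments annotated as pseudogenes, 10 had no count in any library, which allows each a share of up to 0.231% to 0.399% of Trbv counts, depending on the library (a limit of 3 counts). The counted pseudogenes were mostly Trbv24, with 28, 12, 11 and 35 counts, and pseudogenes together held 1.73% to 3.14% of Trbv counts. The segments at the far end of the V array had few counts. Trbv30 had 1 or 2 counts per library. Trbv31, which lies after Trbc2 in the opposite orientation, had 13, 4, 5 and 9 counts.

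The D segments are the shortest members and are shown whole because their few bases limit what their counts can mean.
Trbd1: gggacagggggc
Trbd2: gggactgggggggc
They lie on the plus strand at chr6:41533201-41533212 and chr6:41542163-41542176. Trbd1 is 12 and Trbd2 14 bases long, so a counted read can overlap them by no more than that. Which reads gave these counts was not examined. Trbd1 was at 1.92 and 2.31 CPM in WT libraries and 1.48 and 1.32 CPM in the knockout. Trbd2 was at 6.40 and 3.82 CPM in WT libraries and 5.05 and 5.14 CPM in the knockout. Their log2 fold changes were -0.58 (SE 0.68, edgeR adjusted p = 0.699) and -0.02 (SE 0.49, 0.986). The latter turned to 0.03 with total-count scaling or limma voom and to 0.40 without WT replicate 1. Trbd2 held 76.9%, 62.3%, 77.4% and 79.5% of Trbd counts in WT replicates 1 and 2 and knockout replicates 1 and 2, with WT replicate 2 as the low library.

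The J segments with at least 5% of Trbj counts in some library are shown with the Phe-Gly-X-Gly motif that marks a working J segment in capitals, searched on the coding strand as TTTGGNNNNGG and TTCGGNNNNGG.
Trbj1-2: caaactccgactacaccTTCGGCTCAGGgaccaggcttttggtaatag
Trbj1-4: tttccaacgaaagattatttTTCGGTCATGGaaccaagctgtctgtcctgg
Trbj1-5: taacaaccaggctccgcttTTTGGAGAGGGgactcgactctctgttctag
Trbj1-6: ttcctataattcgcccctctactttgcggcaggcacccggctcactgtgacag
Trbj1-7: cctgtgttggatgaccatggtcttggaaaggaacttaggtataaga
Trbj2-1: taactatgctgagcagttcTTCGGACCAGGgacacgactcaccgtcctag
Trbj2-6: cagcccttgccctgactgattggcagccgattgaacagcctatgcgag
In GRCm38 they lie on the plus strand at chr6:41534001-41534048 (Trbj1-2), chr6:41534811-41534861 (Trbj1-4), chr6:41535084-41535133 (Trbj1-5), chr6:41535554-41535606 (Trbj1-6), chr6:41535642-41535687 (Trbj1-7), chr6:41542754-41542803 (Trbj2-1) and chr6:41543598-41543645 (Trbj2-6). One or the other form was present in 11 of the 14 J segments, 7 with the former and 4 with the latter. It was absent from Trbj1-6 and Trbj1-7, which are annotated as J genes, and from the pseudogene Trbj2-6. These letters do not show whether those segments work.

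The highest J counts were on Trbj1-6 and Trbj1-7, the last J segments of the first cluster. Trbj1-6 had 245 and 238 counts in WT and 253 and 304 in the knockout, and Trbj1-7 had 244 and 243 in WT and 250 and 320 in the knockout. The pair held 39.9% and 45.7% of Trbj counts in WT and 42.6% and 48.5% in the knockout. Trbj1-4 followed with 218, 181, 249 and 201 counts, and Trbj1-2 with 130, 93, 109 and 123. Trbj1-5 had 75, 90, 89 and 87 counts. For Trbj1-6 and Trbj1-7 both knockout libraries were above both WT libraries, with log2 fold changes of 0.28 (SE 0.35) and 0.30 (SE 0.36) that did not pass (edgeR adjusted p = 0.726 and 0.706).

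The second J cluster held a small part of the J counts, at 18.9% and 13.3% in WT and 11.7% and 13.4% in the knockout. WT replicate 1 was once more the high library. The means differed by -3.59 percentage points (exact permutation p = 0.667, two-sided, n = 2 per genotype), and by -0.783 without WT replicate 1. Leaving out the pseudogene Trbj2-6 changed the difference to -2.36. Trbj2-1 had 71 and 31 counts in WT and 33 and 61 in the knockout, and its groups overlapped. The pseudogene Trbj2-6 had 62, 59, 53 and 41 counts, which is 26.7%, 42.1%, 38.4% and 23.8% of the counts of its cluster. Its counts lay within the range of those of Trbj2-1, a segment of similar length that holds the motif.

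**Figure D4:**
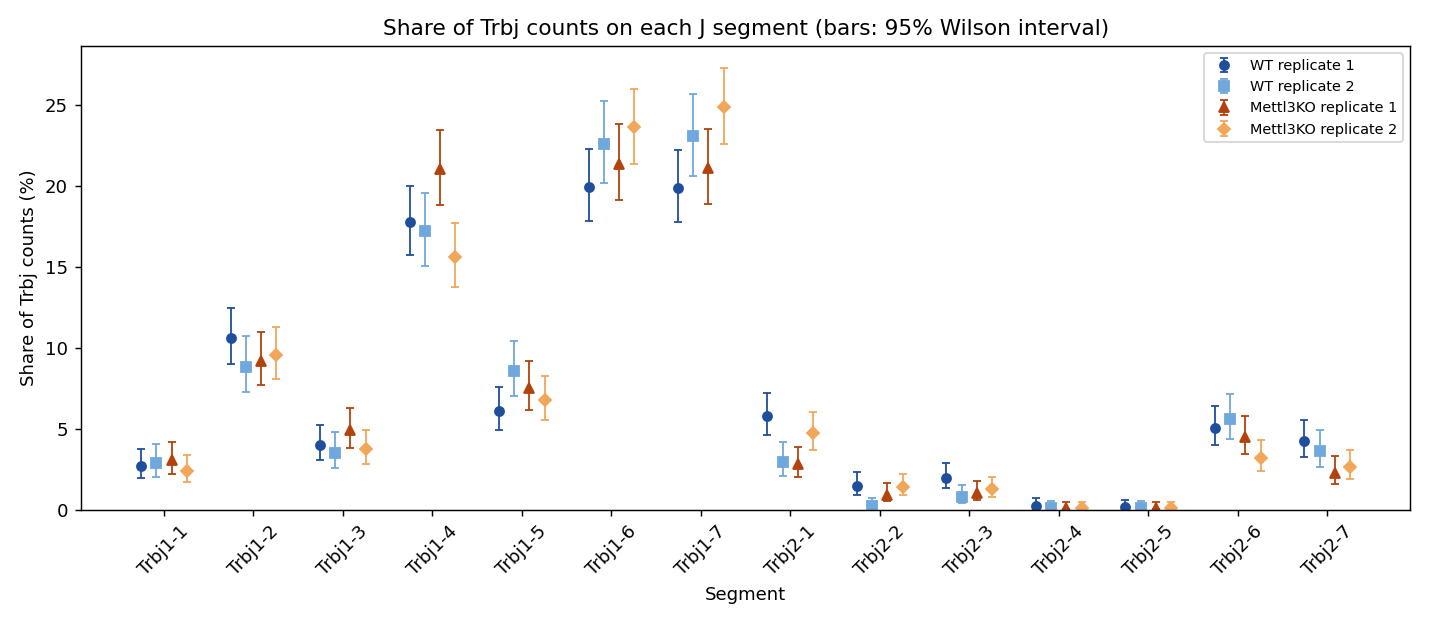
Share of Trbj counts (%) on each of the 14 J segments, with 1 point per library and bars for the 95% Wilson interval. Trbj1-6, Trbj1-7 and Trbj1-4 lead in every library, and all segments of the second cluster lie below 6% in every library.

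Summed by class, the V level was 38.0 ± 11.5 CPM in WT libraries and 39.4 ± 7.48 CPM in the knockout (SD, n = 2; exact permutation p = 1, two-sided). The J level was 42.7 ± 1.22 and 48.8 ± 4.001 CPM, and the C level 1876 ± 2.80 and 2033 ± 11.7 CPM (exact permutation p = 0.333 for each, n = 2 per genotype, the smallest the design allows). The D level was 7.23 ± 1.55 and 6.49 ± 0.0492 CPM (exact permutation p = 1, n = 2). The C level was thus higher in both knockout libraries by 0.12 on the log2 scale, and the V level was not separated.

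Of the 9 partner genes of the receptor, 0 rose and 1 fell, with a median log2 fold change of 0.16. Trac, the constant gene of the α chain, was the one that fell. WT replicates 1 and 2 had 2292 and 2510 CPM, and knockout replicates 1 and 2 had 1612 and 1601 CPM. The fitted value was -0.58 on the log2 scale (SE 0.07, adjusted p = 0.0124 by edgeR). Trac did not pass without knockout replicate 1 (0.114) or knockout replicate 2 (0.121), or with the replicate number as a block (0.0971). The log2 fold changes of Trbc1 and Trbc2 were 0.09 and 0.13, and whether they differ from that of Trac was not tested. Cd4, the coreceptor gene, had 438 and 453.5 CPM in WT replicates 1 and 2 and 670.7 and 582.7 CPM in the knockout (log2 fold change 0.49, edgeR adjusted p = 0.0561). It passed with DESeq2 (0.000697), with genes of at least 5 CPM in 2 libraries (0.0229) and with total-count scaling (0.0390). DESeq2, which called 1371 of 15035 genes, called 3 partner genes higher (Cd4, Cd8a and Cd8b1) and 3 lower (Trac, Cd3d and Cd3g). Cd3e, a signalling chain of the receptor complex, was at 434.5 and 514.9 CPM in WT libraries, against 570.7 and 485.9 CPM in knockout libraries (adjusted p = 0.549 by edgeR). Ptcra, the surrogate α chain that tests a new β chain in precursors, was at 2.63 to 3.21 CPM.

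Of 16 genes of V(D)J recombination, 0 passed the test by edgeR, 3 had an unadjusted p under 0.05, and the median log2 fold change was -0.02. DESeq2, which called 1371 of 15035 genes, called 2 higher, Rag1 and Dntt. Rag1 and Rag2, the recombinase genes, were at 49.2 and 59.9 CPM and at 8.82 and 16.3 CPM in WT, and at 114 and 90.3 CPM and at 14.5 and 20.9 CPM in knockout libraries (edgeR adjusted p = 0.0556 and 0.519). Rag1 passed with DESeq2 (0.000823), with genes of at least 5 CPM in 2 libraries (0.0237) and with total-count scaling (0.0431), though in none of the fits without a library. Dntt, whose enzyme adds bases at the joins, was at 76.8 and 99.2 CPM in WT libraries, against 155.3 and 121.3 CPM in knockout libraries (adjusted p = 0.117 by edgeR). Of 15 factors that act on the locus or its enhancer, 2 rose, Satb1 and Lef1, and 0 fell, with a median of 0.07. DESeq2 called 4 higher, with Runx1 and Bcl11b added, and 1 lower, Runx3. Satb1, a chromatin organiser, had a log2 fold change of 0.94 (edgeR adjusted p = 0.00395) and passed whichever library was left out, but not with the replicate block (0.0573). Lef1, a nuclear partner of β-catenin, had 0.75 (edgeR adjusted p = 0.0112) and passed without WT replicate 1, but missed the threshold when WT replicate 2 (0.0522) or either knockout library was left out (0.114 and 0.0976) and with the block (0.0753).

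Genes that lie within 100 kb of the segments and are no member numbered 35, and 23 of them had no count. Of the 3 tested, 0 passed by edgeR, and 1 had an unadjusted p under 0.05. Ephb6, an ephrin receptor gene beyond Trbv31, was at 38.1 and 29.2 CPM in WT libraries and 59.8 and 63.4 CPM in the knockout, with both knockout libraries above both WT libraries (log2 fold change 0.87, SE 0.20, edgeR adjusted p = 0.0736). Ephb6 passed with DESeq2 (0.00598) and with genes of at least 5 CPM in 2 libraries (0.0391), but in none of the fits without a library.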

How the data were processed

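RNA-seq was deposited for 4 libraries, and groups and replicate numbers come from the sample labels. The authors' table holds raw read counts per gene, 1 column per library, for 53715 Ensembl IDs. STAR 2.6.0a, HTSeq 0.6.1, FastQC 0.11.5, build mm10 and DESeq2 1.18.1 are named in the submitters' processing notes. Their roles, the annotation, the strand setting, the read length and the handling of reads that map to several places are not given in these sources. Reads that cross a V(D)J join match the genome only in part, and segments that resemble each other can lose reads, so V, D and J counts may miss an unknown share of the transcripts.

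IDs were named by GENCODE M21 (GRCm38); all 53 members matched with their version, and coordinates and sequences are from that annotation. Counts were analysed in R 4.3.3 with edgeR 4.0.16 (filterByExpr, TMM, glmQLFit robust, glmQLFTest, two-sided, no covariate, 2 residual degrees of freedom), with Benjamini-Hochberg adjustment over all 14185 tested genes and a threshold of 0.05. DESeq2 1.42.0 and limma 3.58.1 served as alternatives. SE is the log2 fold change over the square root of F. In counts simulated for this comparison (14185 genes, 200 changed 4-fold), edgeR recovered 63.5% with 10 false calls. The changed genes were drawn from all tested genes, so this rate does not describe the V, D and J segments, whose counts are low. Shares have 95% Wilson intervals, and exact permutation tests used scipy 1.17.1. The libraries of a genotype differed beyond counting noise (the chi-square statistic was 42.5 times its degrees of freedom for WT, 27.0 times for knockout) and were kept as replicates. Members, lists and the rule for named genes were chosen with earlier results of these data known. The rule takes every C and D segment, Trbv13-2, Trbv29, Trbv1, Trbv13-1, Trbv13-3, Trbv30 and Trbv31, other V segments with at least 2% of Trbv counts and J segments with at least 5% of Trbj counts in any library, and from the lists of receptor, recombination, enhancer and neighbouring genes those past the test, up to 5 with the smallest p, and Rag1, Rag2, Dntt, Trac, Cd3e and Ptcra. Genes of the cell marker lists fall outside it. Klrb1c, Zbtb16, Blk, Trdc, Lyz2, Csf1r, Fcer1g, Pax5, Foxp3, Runx1, Cd3d, Tcf7, Arpp21 and Cd1d1 were named after their values were seen.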

Additional observations from a re-analysis of the deposited data

How the results depend on the processing

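The number of β locus segments called was 0 in all 11 other fits run (DESeq2, limma voom, total-count and RLE scaling, no filter, at least 5 CPM in 2 libraries, each library left out, and a replicate block), while the count over all genes, 368, moved. It was 1371 with DESeq2, 727 at 5 CPM or more in 2 libraries, 41 to 172 with a library left out and 33 with the replicate number as a block. Leaving out a library leaves 1 in its genotype, which is then assumed to vary like the other genotype. Deviations of same-numbered libraries did not correlate (r = -0.012), so the numbers were not taken as pairs, and the block called 0 segments. At an unadjusted p under 0.05, Trbc2 passed with total-count scaling and Trbv1 without WT replicate 2, and no segment did in the other fits. The log2 ratio of the summed C level was 0.12, 0.11 to 0.12 with a library left out, and 0.17 with total counts as library sizes. That of the summed V level was 0.05, and -0.23 to 0.40 with a library left out. Dividing counts by exon length or leaving out pseudogenes moved the genotype differences of the Trbv13-2, Trbv29, Trbv1, Trbv13 family and Trbj2 shares, and of the 3 segments together, by less than the SD between replicates. The Trbc2 share difference was -0.0996 to 1.37 points with a library left out. The V counts, 751 to 1297 per library, limit all V shares.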
